A study of Mus musculus with 6 samples.

Results

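The Notch pathway was examined through 10 genes: the receptors NOTCH1, NOTCH2, NOTCH3 and NOTCH4, the ligands JAG1, JAG2, DLL1 and DLL4, and the target genes HES1 and HEY1. They were taken by symbol from a table of 24908 genes measured by bulk RNA-seq, and each symbol had 1 row. The mean FPKM over the libraries was 1 or more for all 10, as it was for 12361 genes of the table. FPKM divides the fragments of a gene by the length of its transcript and by the depth, so that levels of different genes can be set side by side per length.

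The libraries came from the ventral prostate (VP), dorsolateral prostate (DLP) and anterior prostate (AP) of 1 wild-type mouse (WT) and 1 littermate heterozygous for the human c-MYC transgene (MYC). Both were 12-week-old FVB males on the same purified diet, of the Hi-MYC colony. The transgene is driven by the ARR2Pb promoter in the prostate epithelium. Each lobe was dissociated into a cell suspension, and poly(A) RNA of a portion of the cells was sequenced, giving 1 library per lobe and genotype. The 3 libraries of a genotype share 1 mouse, so the effect of genotype and that of the individual mouse cannot be told apart, and no p-value was computed.

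Notch receptors are membrane proteins that are activated by ligands on a neighbouring cell. Binding of a Jagged or Delta-like ligand lets ADAM proteases and then gamma-secretase cut the receptor, and its freed intracellular part enters the nucleus, joins the DNA-binding protein RBPJ and switches on HES and HEY genes, which encode transcriptional repressors. In the prostate, Notch signalling is known from the basal and luminal epithelium, the stroma and the blood vessels, where NOTCH4 and DLL4 are classically endothelial and NOTCH3 marks mural cells. Lobes were sequenced whole, so fewer cells of a type and less RNA per cell cannot be told apart in any value given here.

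Sequencing depth, recovered from the steps between low FPKM values, ranged from 25.4 M mapped reads in WT AP to 49.6 M in MYC AP. For the 10 genes this came to between 77 estimated reads (HEY1 in MYC VP) and 11947 (HES1 in WT VP). The 95% intervals of ratios below are exact binomial (Clopper-Pearson) intervals from the estimated reads of both libraries and cover counting error only. The Myc row, which can hold reads of the mouse gene and of the human transgene, stood at 226.4 FPKM in WT VP against 1696 in MYC VP and at 200.6 in WT DLP against 586.1 in MYC DLP. In AP it stood at 230.0 in WT and 230.9 in MYC, so it gives no check of the genotype label there. The luminal epithelial markers KRT8 and KRT18 had a mean of between 418 and 1452 FPKM. MYC AP stood apart in 1 respect: 5 seminal vesicle secretory genes summed to 513 FPKM there. They summed to 8.99 FPKM in MYC DLP, against 0.105 in WT DLP and 0 in WT VP, MYC VP and WT AP. The part of seminal vesicle tissue in the values of MYC DLP and MYC AP was not tested. Each AP value for MYC rests on the MYC AP library, and without it AP has no comparison.

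Sequence upstream of the start of 4 of the genes is shown because these genes carry the patterns described below. DLL4 and NOTCH4 had the lowest VP to AP ratios of the 10 genes in both genotypes. JAG1 was below WT in all 3 lobes, and NOTCH3 was above WT in all 3. The sequences are from RefSeq on GRCm38.p6, the assembly of the mm10 build named by the labels, and run 5′ to 3′ on the strand of the gene up to the base before its first one. Capitals mark the GC box, GGGCGG or its reverse complement CCGCCC.
DLL4: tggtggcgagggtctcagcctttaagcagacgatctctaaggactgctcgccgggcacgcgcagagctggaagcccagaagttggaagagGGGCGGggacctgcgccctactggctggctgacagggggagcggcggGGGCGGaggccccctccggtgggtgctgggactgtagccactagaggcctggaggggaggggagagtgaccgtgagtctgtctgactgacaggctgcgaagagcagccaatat
NOTCH4: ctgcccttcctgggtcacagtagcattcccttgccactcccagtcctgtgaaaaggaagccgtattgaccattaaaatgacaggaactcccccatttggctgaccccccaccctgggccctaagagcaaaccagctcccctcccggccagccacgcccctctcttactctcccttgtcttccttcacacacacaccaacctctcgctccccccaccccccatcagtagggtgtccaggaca
JAG1: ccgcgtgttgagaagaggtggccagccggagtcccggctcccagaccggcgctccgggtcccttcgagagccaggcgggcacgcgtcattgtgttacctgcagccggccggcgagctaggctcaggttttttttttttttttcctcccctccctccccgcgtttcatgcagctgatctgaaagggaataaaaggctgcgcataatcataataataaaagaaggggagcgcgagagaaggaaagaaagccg
NOTCH3: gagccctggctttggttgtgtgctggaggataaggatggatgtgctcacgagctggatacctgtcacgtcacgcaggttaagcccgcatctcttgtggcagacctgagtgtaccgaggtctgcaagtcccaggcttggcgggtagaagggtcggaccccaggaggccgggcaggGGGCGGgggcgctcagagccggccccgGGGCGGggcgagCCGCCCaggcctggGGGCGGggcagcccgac
The DLL4 window lies at chr2:119325534-119325783 on the plus strand, holds 2 GC boxes and 14 CpG dinucleotides and is 65.6% G and C. NOTCH4 has its window at chr17:34564045-34564285 on the plus strand, with 0 GC boxes, 4 CpG and 58.9% G and C. For JAG1, chr2:137116521-137116770 on the minus strand, there were 0 GC boxes, 20 CpG and 57.2% G and C. The NOTCH3 window, chr17:32166897-32167140 on the minus strand, holds 4 GC boxes and 17 CpG and is 68.9% G and C. DLL4 and NOTCH4, whose levels were lowest in the same libraries, differ in GC boxes and CpG. The NOTCH3 and NOTCH4 windows are 244 and 241 bases long and the others 250. RefSeq windows were found for 8 of the 10 genes, and 7 genes had one that lies outside the gene. Of these 7 windows, 4 hold a GC box (NOTCH1, NOTCH2, NOTCH3 and DLL4), against 32.7% of 32851 windows of 250 bases from all genes. Bases inside the gene were left out of the 7 windows but not out of the 32851, so the sets are not alike. Neither TGGGAA, the core letters of RBPJ binding, nor CACGTG, the E-box letters bound by MYC and MAX, was found on either strand of the 7 windows, and no match overlapped another motif. Over all windows, TGGGAA was in 21.6% and CACGTG in 6.02%. A match describes letters only.

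**Figure D1:**
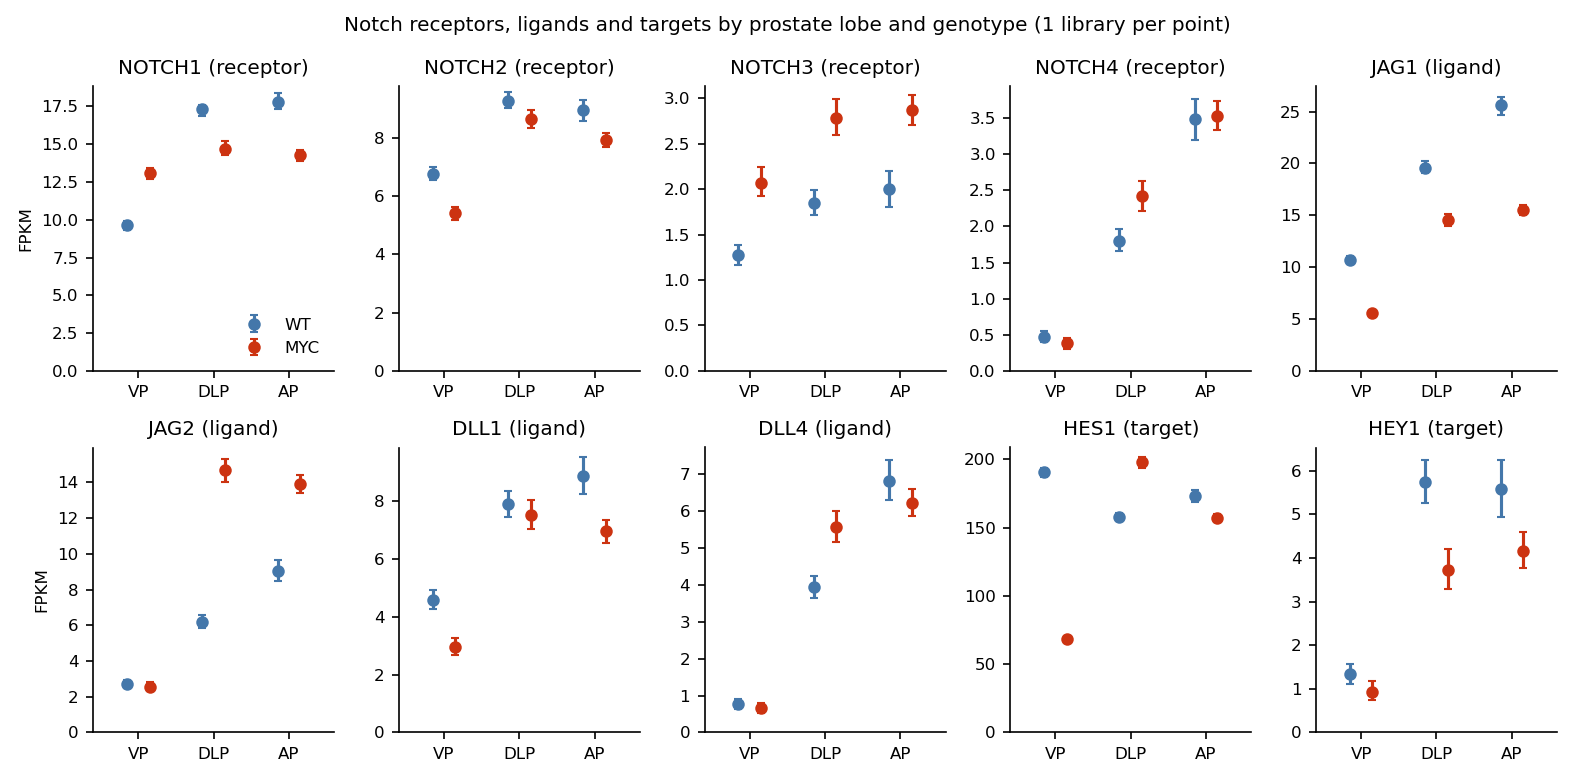
FPKM (vertical axes, linear and from 0) of the 10 Notch genes in VP, DLP and AP of the WT mouse (blue) and the MYC mouse (red), 1 library per point, with bars for the exact Poisson 95% interval of its estimated reads. Both VP libraries are the lowest for each gene except NOTCH3 and HES1. HES1 is lowest in MYC VP at 68.6 FPKM, and JAG1 is lower in MYC than in WT in each lobe.

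Among the receptors, NOTCH1 gave the highest level in every library. NOTCH1 (chr2:26457902-26503822) stood at 9.63 and 13.1 FPKM in VP (WT and MYC, in this order), 17.3 and 14.7 in DLP and 17.8 and 14.3 in AP. It was above WT in VP and below WT in DLP and AP, and its lowest library was WT VP. The neighbours in this order whose ratio had an interval that held 1 were WT AP with WT DLP, and MYC DLP with MYC AP. A long noncoding RNA gene overlaps the end of NOTCH1 and had 1.26 to 2.27 FPKM. NOTCH1 made up between 49.9% and 62.4% of the summed FPKM of the 4 receptors.

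NOTCH2 (chr3:98013538-98150367), also a widely expressed receptor, had 6.77 FPKM in VP of WT and 5.42 in that of MYC, with 9.29 and 8.66 in DLP and 8.95 and 7.92 in AP. Both VP libraries were the lowest, and MYC was below WT in each lobe, though the log2 ratios were small, at -0.28 in VP, -0.09 in DLP and -0.16 in AP. From the highest down, neither WT DLP and WT AP nor WT AP and MYC DLP differed beyond counting error.

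NOTCH3 (chr17:32120820-32166896), the receptor of vascular mural cells, had a VP level of 1.27 FPKM in WT and 2.07 in MYC, a DLP level of 1.85 and 2.78 and an AP level of 2.0 and 2.87. The 3 MYC libraries were all above the 3 WT libraries, though the interval between MYC VP and WT AP held 1, and no other of the 10 genes was above WT in all 3 lobes. The MYC to WT ratio of FPKM was 1.64 in VP (95% interval 1.45 to 1.84), 1.5 in DLP (1.35 to 1.67) and 1.44 in AP (1.28 to 1.61). None of them reached 2-fold. The pericyte genes other than NOTCH3 (RGS5, PDGFRB, CSPG4, KCNJ8 and ABCC9, mural cell markers) summed to 5.94 (WT) and 4.46 (MYC) FPKM in VP, 18.9 and 15.2 in DLP, and 24.0 and 30.0 in AP, so that NOTCH3 was higher in MYC VP and MYC DLP while the sum of this list was lower there. RGS5 among them was above WT in each lobe, with log2 ratios of 0.20 in VP, 0.45 in DLP and 0.62 in AP. The part of mural cells in the NOTCH3 level was not tested. Smooth muscle markers, 10 genes such as ACTA2 and MYH11, summed to 420 and 256 FPKM in VP (WT and MYC, in this order), 512 and 302 in DLP and 334 and 438 in AP, again lower in MYC in the first pair of lobes and higher in AP.

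NOTCH4 (chr17:34564286-34588543), an endothelial receptor, had 0.471 FPKM in VP of WT and 0.380 in that of MYC, with 1.80 and 2.42 in DLP and 3.48 and 3.53 in AP. Lobes lay further apart than genotypes, and the interval of the MYC to WT ratio held 1 in VP (0.618 to 1.04) and in AP (0.917 to 1.13), though not in DLP (1.18 to 1.51). The WT AP level was above the WT DLP level and both were above WT VP. NOTCH4 was the scarcest receptor in VP and DLP, and NOTCH3 in AP.

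JAG1 was the ligand with the highest level in 5 of the 6 libraries. JAG1 (chr2:137081451-137116520) stood at a VP level of 10.7 FPKM in WT and 5.55 in MYC, a DLP level of 19.6 and 14.5 and an AP level of 25.6 and 15.5. It was below WT in all 3 lobes, and it was the only one of the 10 genes for which no interval between neighbours in the order of levels held 1. The MYC to WT ratio was 0.520 in VP (95% interval 0.486 to 0.556), 0.740 in DLP (0.706 to 0.775) and 0.605 in AP (0.578 to 0.633).

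JAG2 (chr12:112907803-112929812), the other Jagged ligand, had 2.69 (WT) and 2.54 (MYC) FPKM in VP, 6.19 and 14.7 in DLP, and 9.05 and 13.9 in AP. The MYC libraries of DLP and AP were above all WT libraries, while both VP libraries were low. The pair at the top and the VP pair did not differ beyond counting error. In MYC DLP it reached the level of JAG1 (14.5 FPKM), whereas WT DLP had 19.6 FPKM of JAG1 to 6.19 of JAG2. As a share of the summed FPKM of the 4 ligands, JAG1 made up 52.1% in WT DLP and 34.3% in MYC DLP, and 50.9% in WT AP and 36.4% in MYC AP. JAG2 made up 16.4% and 34.7% in DLP and 18.0% and 32.6% in AP, in the same order.

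DLL1 (chr17:15367354-15376932), a Delta-like ligand, had 4.57 and 2.97 FPKM in VP (WT and MYC, in this order), 7.90 and 7.53 in DLP and 8.85 and 6.95 in AP. It was below WT in all 3 lobes, but in DLP the interval of the ratio held 1 (0.873 to 1.04), as it did between MYC DLP and MYC AP. DLL4 (chr2:119325784-119335666), the endothelial ligand that restrains vessel sprouting, had 0.762 FPKM in VP of WT and 0.667 in that of MYC, with 3.93 and 5.58 in DLP and 6.82 and 6.23 in AP. The VP libraries were far below the other 4, and the interval of the MYC to WT ratio held 1 in VP (0.666 to 1.14) and AP (0.827 to 1.01). The gene Gm14207 overlaps the start of DLL4 and was at 0.157 to 0.516 FPKM, so in VP reads of either gene may have been counted for the other.

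HES1 made up between 96.5% and 99.3% of the summed FPKM of both targets. HES1 (chr16:30065357-30067796), a repressor that keeps progenitor cells from differentiating in several tissues, had 191 FPKM in VP of WT and 68.6 in that of MYC, 158 and 198 in DLP and 173 and 157 in AP. The other 5 libraries lay between 157 and 198 FPKM and MYC VP was the low one. Among those 5, WT DLP and MYC AP did not differ beyond counting error. This placed HES1 at the 97.8th percentile of the compared genes in WT VP and at the 93.6th in MYC VP. HEY1 (chr3:8663359-8667038), a related repressor with a role in arterial vessels, had a VP level of 1.33 FPKM in WT and 0.937 in MYC, a DLP level of 5.74 and 3.72 and an AP level of 5.58 and 4.17. Its order of lobes was unlike that of HES1, with both VP libraries lowest, and MYC was below WT in each lobe. Between the DLP and AP libraries of the same genotype the interval held 1, for WT (0.891 to 1.19) and for MYC (0.763 to 1.05). HEY1 was the gene with the fewest reads, and its ratio in VP had the widest interval relative to its value, 0.705 (0.525 to 0.941).

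MYC was compared with WT within each lobe to ask how the pathway differed between lobes of a mouse with the transgene and of one without it, over all cell types they hold. A gene was counted as changed when its log2 ratio, computed on log2(FPKM + 1), was at least 1 in size, that is 2-fold. In VP, HES1 fell, with a log2 ratio of -1.46 and an FPKM ratio of 0.360 (95% interval 0.347 to 0.374), and the other 9 genes did not pass. That is 1 of 10 genes, beside 12.8% of all 12361 genes (6.88% higher and 5.95% lower, 850 and 736 genes). With libraries scaled to equal sums of FPKM the split over all genes became 553 higher and 1086 lower, and with size factors 688 and 923. The log2 ratio of HES1 was lower than that of all but 2.17% of genes in VP. JAG1 came next at -0.83, and passed 2-fold with equal sums (-1.03). DLL1 stood at -0.49, NOTCH3 at 0.44 and NOTCH1 at 0.40, and the median of the 10 genes was -0.18 beside 0.04 over all genes.

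In DLP, JAG2 rose, with a log2 ratio of 1.12 and an FPKM ratio of 2.37 (2.2 to 2.55), again 1 of 10 genes, beside 9.85% of all genes (6.46% higher and 3.39% lower). HES1 stood at 0.32 in this lobe, with 198 FPKM in MYC against 158 in WT, and HEY1 at -0.51. The median of the 10 was 0.11 beside 0.03 over all genes. In AP, 0 of 10 genes passed, beside 2.65% of all genes (2.05% higher and 0.599% lower). AP values lay closer together over all genes, with the 5th and 95th percentiles at -0.46 and 0.69, against -1.07 and 1.15 in VP and -0.83 and 1.18 in DLP. JAG1 at -0.69 lay below that range in AP, at the 2.12th percentile, and JAG2 at 0.57 stood at the 91.8th. The counts of 1, 1 and 0 of 10 genes were near the background shares in all 3 lobes.

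**Figure D2:**
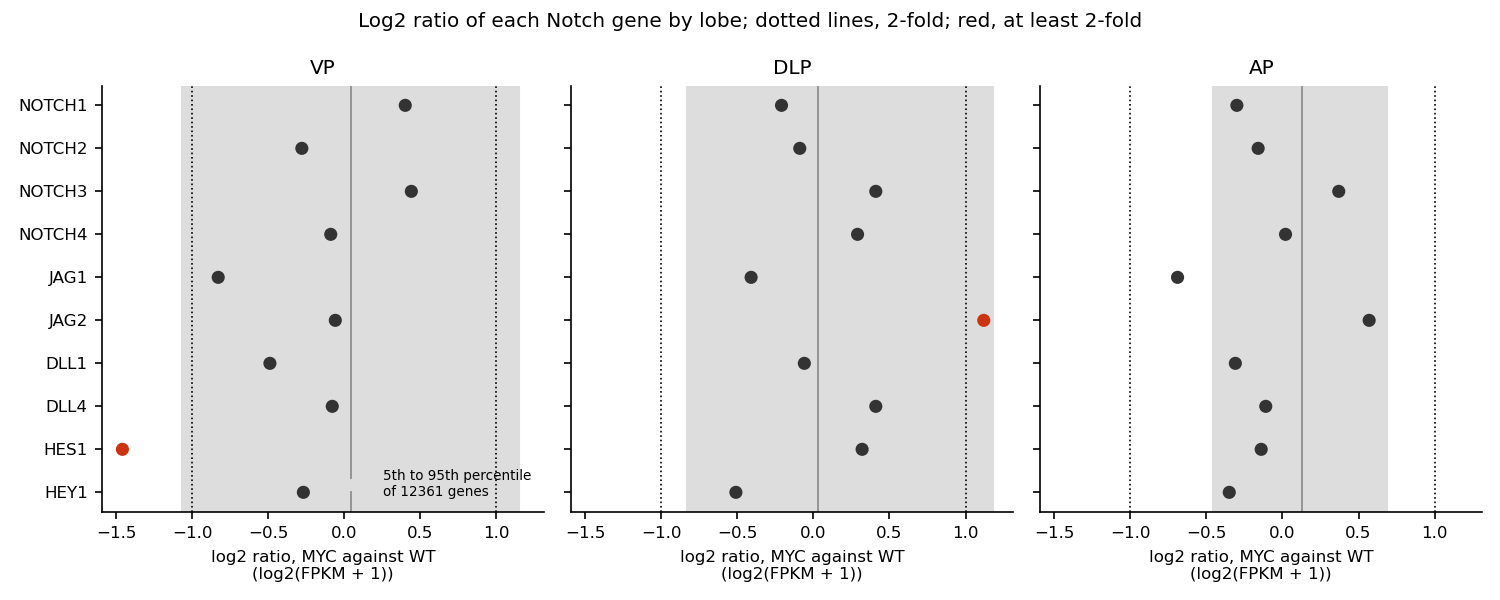
Log2 ratio of MYC against WT on log2(FPKM + 1) (horizontal axes) for the 10 Notch genes in VP, DLP and AP, 1 library per group. Shading spans the 5th to 95th percentile of the 12361 genes, the grey line is their median, dotted lines mark 2-fold, and the red points are HES1 in VP (-1.46) and JAG2 in DLP (1.12).

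Direction across lobes was also counted without a threshold. NOTCH2, JAG1, DLL1 and HEY1 were below WT in all 3 lobes, 4 of 10 genes beside 13.9% of all genes, and NOTCH3 was above WT in all 3, 1 of 10 beside 29.9%. Of the 12 ratios of those 4 genes, the interval held 1 for DLL1 in DLP and left it out for the rest. With ratios taken to the mean of KRT8 and KRT18, NOTCH2 in AP stood at 0.01, above 0. Ratios for JAG1, DLL1, HEY1 and NOTCH3 kept their direction in each lobe under all 6 other scalings and pseudocounts.

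Other cell types differed between the same pairs of libraries. Macrophage markers (ADGRE1, CSF1R, CD68, LYZ2, C1QA, C1QB and C1QC) were at least 2-fold higher in MYC for 7 of 7 genes in VP and DLP, with sums of 48.8 FPKM in WT VP, 312 in MYC VP, 76.8 in WT DLP and 443 in MYC DLP, and for 0 of 7 in AP, where WT had 204 and MYC 186. Fibroblast markers fell for 6 of 9 genes in VP, from a sum of 710 to 210 FPKM. In DLP 3 of 9 fell and 2 rose (COL1A1, 1.98, and COL3A1, 2.03), with sums of 1418 and 768 FPKM, and in AP 0 fell and 3 rose, with sums of 1329 and 1538 FPKM. JAG1 was below WT in all 3 lobes and HES1 fell in VP, and the part of macrophages and fibroblasts in that was not tested. All 7 basal markers were below WT in VP, where TRP63 fell (log2 ratio -1.20) and the sum went from 506 to 353 FPKM. In DLP, where JAG2 rose, 2 of 7 basal markers rose, KRT5 (1.09) and TRP63 (1.59), and 0 fell. The median of the 7 was 0.27, with DST at -0.56 and ITGA6 at -0.32, and the basal sum went from 1108 to 1461 FPKM. JAG2 was higher by a ratio of 2.37 in that lobe and the basal sum by less, and the part of basal cells in it was not tested. Of 4 luminal progenitor markers (KRT4, PSCA, LY6D and CD44), KRT4 (1.14) and LY6D (3.21) rose in DLP and KRT4 (1.48), PSCA (1.28) and LY6D (1.19) in AP, where JAG2 stood at 0.57. In VP, LY6D rose (2.14) and KRT4 fell (-2.75), with JAG2 at -0.06, and the part of these cells was not tested either. In AP, TRP63 also rose (1.57) while KRT14 fell (-1.19) and the basal sum went from 1552 to 1004 FPKM.

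Immediate early genes that tissue dissociation can induce (FOS, FOSB, JUN, JUNB, EGR1, IER2, ATF3, DUSP1, NR4A1 and ZFP36) were at high levels in all 6 libraries, with sums between 7757 and 11285 FPKM. None of the 10 passed 2-fold in any lobe, but in VP 9 of 10 were below WT, with log2 ratios between -0.93 and 0.19 and a median of -0.51. The MYC VP library thus had both the lowest sum of this list and the lowest HES1, and the part of dissociation in the HES1 level was not tested. Endothelial markers showed little difference between genotypes, with 1 of 12 genes (EGFL7, 1.01) past 2-fold in VP and 0 in DLP and AP.

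Between lobes, the genes that passed the 2-fold threshold did so in comparisons with VP. In WT, DLL4 and HEY1 were at least 2-fold lower in VP than in DLP, 2 of 10 genes beside 6.29% of all genes (with a pseudocount of 0.1, 4 of 10 beside 11.2%). Against WT AP, DLL4, HEY1, JAG1, JAG2 and NOTCH4 were lower, 5 of 10 beside 10.3%. DLP and AP of WT differed for 0 of 10, beside 5.16% of all genes different in either direction. The median log2 ratio of the 10 genes was -0.80 for WT VP against WT DLP (all genes -0.13) and -1.01 against WT AP (all genes -0.01).

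In the MYC mouse, DLL1, DLL4, HES1, HEY1, JAG1, JAG2 and NOTCH4 were lower in VP than in DLP, 7 of 10 beside 14.0%, and than in AP, 7 of 10 beside 16.1%. DLL1 against AP stood at the threshold, with a log2 ratio of -1.0, and with size factors or a trimmed mean of ratios 6 of 10 genes were lower than in AP. The median was -1.27 against DLP (all genes -0.07) and -1.26 against AP (all genes -0.02), and MYC DLP and MYC AP differed for 0 of 10 genes, beside 8.03%. The comparisons of a genotype share their VP library, so that a low library would enter both. HES1 was among these genes in MYC only, with VP to DLP ratios of 1.21 (1.18 to 1.24) in WT and 0.347 (0.334 to 0.361) in MYC, and the difference between those ratios was not tested.

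DLL4 and NOTCH4 had the lowest VP to AP ratios of the 10 genes in both genotypes. WT VP held 0.112 of the WT AP level of DLL4 (95% interval 0.0917 to 0.135) and 0.136 of that of NOTCH4 (0.113 to 0.163). In MYC these ratios were 0.107 (0.0858 to 0.131) and 0.108 (0.0869 to 0.132). HEY1 had 0.238 of its WT AP level, JAG2 0.297 and JAG1 0.417. NOTCH2 and HES1 were nearest to even in WT, at 0.756 and 1.10.

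Endothelial markers differed between lobes by about as much. The 12 genes of that list (PECAM1, CDH5, KDR, TEK, TIE1, EMCN, ENG, EGFL7, ESAM, CLDN5, ROBO4 and VWF) summed to 40.8 (WT) and 44.5 (MYC) FPKM in VP, 185 and 206 in DLP, and 252 and 265 in AP. Each of the 12 was at least 2-fold lower in VP than in DLP and than in AP, in both genotypes, and the sum in WT VP was 0.162 of that in WT AP and 0.221 of that in WT DLP. PECAM1, a defining endothelial marker, stood at 6.25 FPKM in WT VP and 56.5 in WT AP.

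Set against the mean of these markers, DLL4 and NOTCH4 varied least of the 10 genes. Per 100 FPKM of that mean, DLL4 had 22.4 and 18.0 FPKM in VP (WT and MYC, in this order), 25.6 and 32.5 in DLP and 32.5 and 28.2 in AP, a highest to lowest ratio of 1.81. NOTCH4 had 13.9, 10.3, 11.7, 14.1, 16.6 and 16.0 FPKM in the same order, a ratio of 1.62. For HEY1 the ratio was 2.07 and for JAG2 2.12, while it lay between 4.27 and 7.88 for the other 6 genes. Per 1000 FPKM of the mean of KRT8 and KRT18, DLL4 varied 28.4-fold and NOTCH4 26.8-fold, against 10.2-fold and 9.29-fold in FPKM itself. That mean was higher in VP (1452 in WT and 1207 in MYC) than in DLP and AP (418 to 571). Division by it therefore widens the range of any gene that is low in VP. Relative to endothelial markers, HES1 was highest in VP, with 5609 FPKM per 100 FPKM of the endothelial mean in WT VP and 711 in MYC AP.

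**Figure D3:**
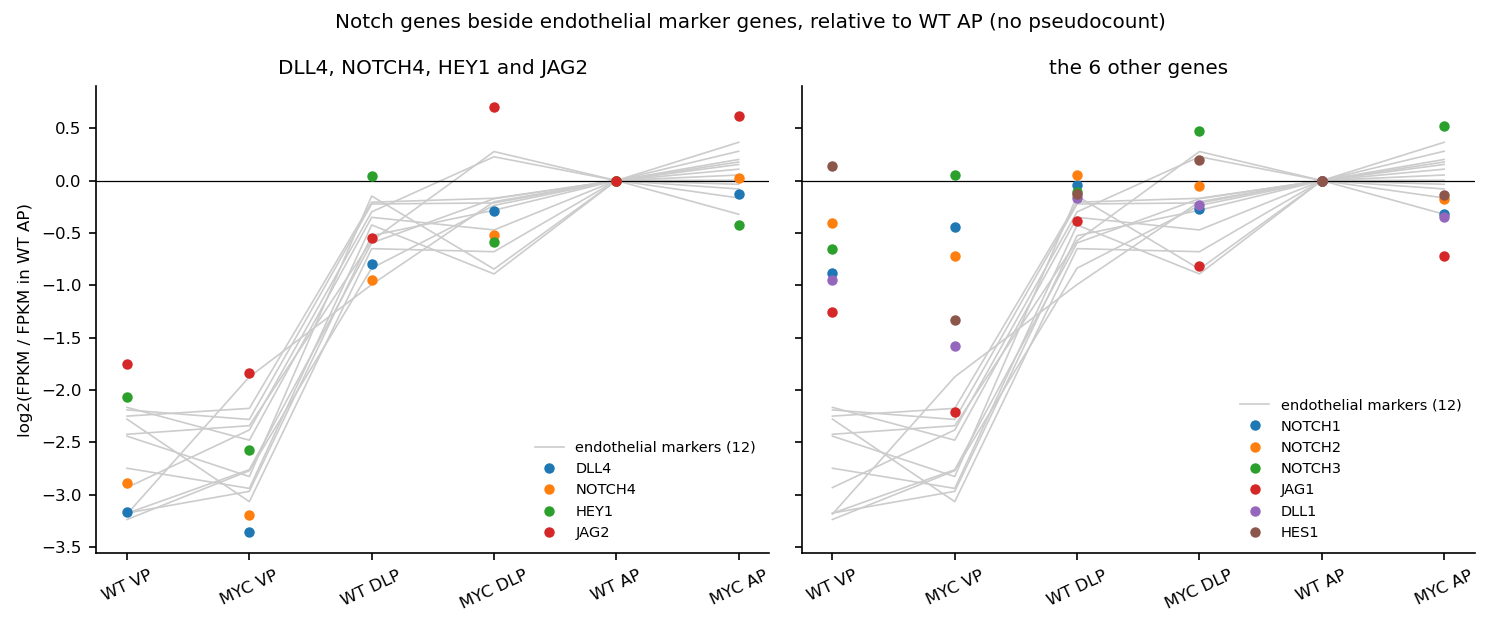
Log2 of FPKM relative to WT AP (vertical axis, no pseudocount) in the 6 libraries, with each of 12 endothelial marker genes as a grey line and Notch genes as coloured points. DLL4 and NOTCH4 lie within or near the grey lines in every library, whereas HES1 in WT VP lies above all of them, and in WT VP the 6 genes of the right panel lie above the lines.

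Basal markers also separated the lobes. The 7 basal markers (KRT5, KRT14, KRT15, TRP63, DST, COL17A1 and ITGA6) summed to 0.326 of the WT AP level in WT VP, with 5 of 7 at least 2-fold lower. JAG1 at 0.417, DLL1 at 0.517 and NOTCH1 at 0.540 of their WT AP levels lay above both ratios of sums, but within the range of the 7 single basal markers, 0.208 to 0.794 with a median of 0.405. The part of each cell type in the lobe differences was not tested.

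By the likeness of their profile over the 6 libraries, other genes were set beside each of the 7 Notch genes that spanned at least 1 on the log2(FPKM + 1) scale. Pearson's r was taken among 5673 genes with the same span and is given as a description, since libraries share mice and lobes. Closest to DLL4 were D16ERTD472E, PODXL and SHANK3 (each 0.997), and 32 genes had an r of at least 0.99. NOTCH4 was matched by IFITM5 and SHE (both 0.998) and SYT15 (0.997), and 28 genes reached 0.99. HEY1 was nearest to ADCY4 (0.999), SEMA6B (0.997) and LRRC32 (0.994), JAG2 to 4930402H24RIK (0.995), DYSF (0.994) and GJA5 (0.993). JAG1 had JDP2, HAS1 and S100A7A (each 0.996) and DLL1 had SHH (0.999), SEC14L2 and PHLDB2 (both 0.997). HES1 had no gene at 0.99, and its nearest were LRCH1 (0.972), ATP2A3 (0.961) and ENPP1 (0.954). NOTCH1, NOTCH2 and NOTCH3 spanned less than 1 and were not matched.

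Other members of the pathway were listed by role, 58 genes in all, of which 45 averaged 1 FPKM or more. The 13 below that mean, among them DLL3, DLK1, HES5, HES7 and HEY2, had at most 1.0 FPKM in any library. In VP, 1 of 45 rose and 0 fell, beside 12.8% of all genes different, and the median log2 ratio was 0.08 (all genes 0.04). With a pseudocount of 0.1, 8 of 45 passed in VP, beside 20.4% of all genes. The gene was KAT2A, a histone acetyltransferase of transcriptional co-activator complexes, with 12.1 FPKM in VP of WT and 33.0 in that of MYC, with 11.0 and 21.3 in DLP and 10.8 and 11.7 in AP. It was above WT in each lobe, with log2 ratios of 1.38, 0.89 and 0.11.

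In DLP, 1 of 45 rose and 1 fell, beside 9.85% of all genes different, with a median of 0.11 (all genes 0.03). DLK2, a Delta-like protein that can inhibit Notch signalling, rose from 2.64 to 8.43 FPKM (log2 ratio 1.37), and stood at 0.832 in WT VP, 0.607 in MYC VP, 3.24 in WT AP and 6.10 in MYC AP. Like JAG2, it was highest in MYC DLP and MYC AP. DNER, a transmembrane protein with Delta-like repeats, fell from 8.0 to 2.53 FPKM in DLP (-1.35). In VP it had 2.47 FPKM in WT and 0.802 in MYC, and in AP 3.48 and 7.52. In AP, 0 of 45 passed, beside 2.65% of all genes, and the median was 0.17 (all genes 0.13).

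Within roles, the nuclear complex that includes RBPJ and the MAML co-activators had medians of 0.02 in VP, 0.05 in DLP and 0.17 in AP over 9 genes, which in VP ran from -0.82 (MAML2) to 1.38 (KAT2A). Gamma-secretase had medians of 0.12, 0.02 and 0.16 over 5 genes. The receptor proteases FURIN, ADAM10 and ADAM17 had medians of 0.16 in VP, 0.71 in DLP and 0.21 in AP, with 0 of 3 past 2-fold, and in DLP FURIN stood at 0.73, ADAM10 at 0.71 and ADAM17 at 0.28. RBPJ itself had a VP level of 8.17 FPKM in WT and 6.74 in MYC, a DLP level of 11.0 and 11.4 and an AP level of 14.9 and 10.7. The glycosylation enzymes, which add sugars to the receptors and include the Fringe genes LFNG, MFNG and RFNG, had medians of 0.59 in VP, 0.33 in DLP and 0.04 in AP over 5 genes, with 0 of 5 past 2-fold on the log2(FPKM + 1) scale. That scale understates low genes. The ratio of FPKM itself was 2.49 in VP and 2.10 in DLP for LFNG (1.19 and 2.96 FPKM in VP, 2.79 and 5.85 in DLP, WT first) and 3.45 in VP for MFNG (0.259 and 0.896 FPKM, 95% interval 2.09 to 6.02). Low genes of other roles had ratios of FPKM under 0.5 in VP without passing on that scale: DNER 0.325, HEYL 0.396, MAML2 0.408 and NUMBL, an inhibitor related to NUMB, 0.434. NUMBL was below WT in each lobe, with log2 ratios of -0.86 in VP, -0.63 in DLP and -0.37 in AP. NRARP, a feedback inhibitor that Notch induces in many cells, stood at 0.526 and 1.16 FPKM in VP, 1.72 and 3.46 in DLP and 2.05 and 3.91 in AP, WT first. It was above WT in each lobe without reaching the threshold, with log2 ratios of 0.50, 0.71 and 0.69, whereas HEY1 was below WT in each.

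**Figure D4:**
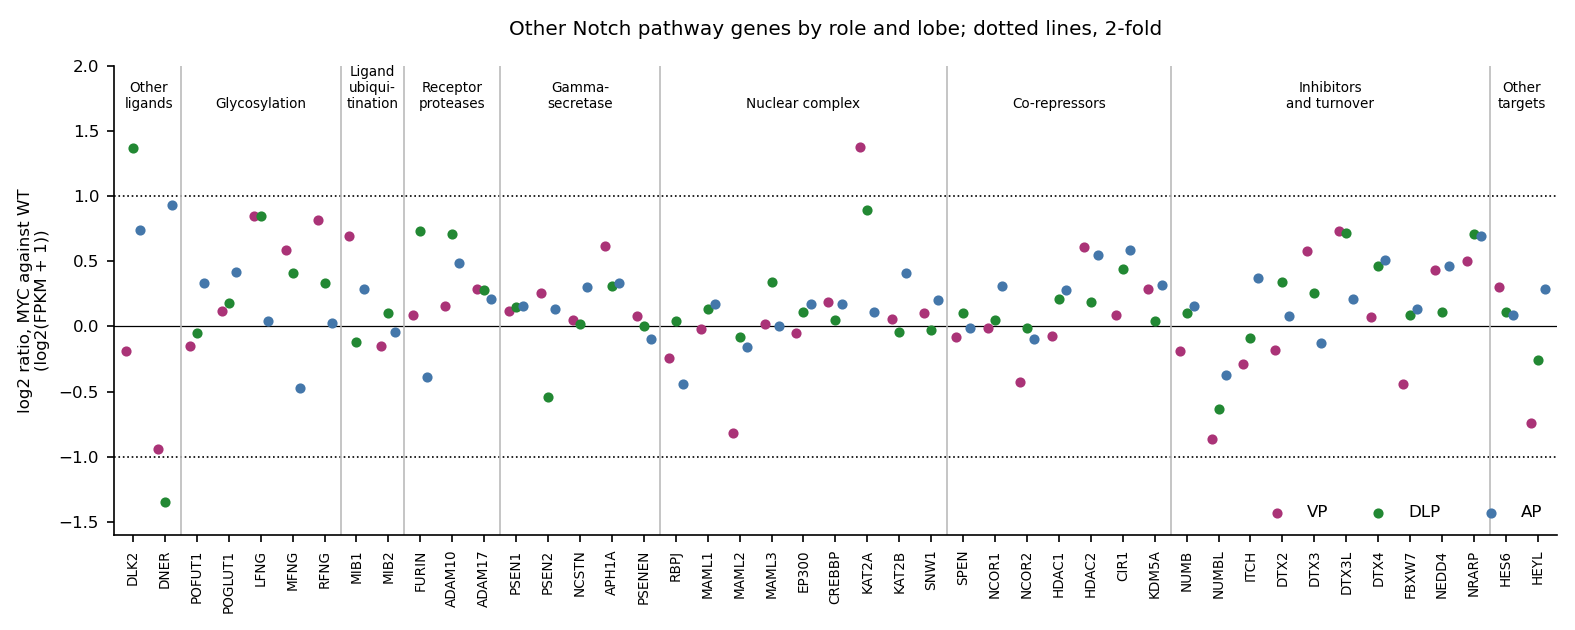
Log2 ratio of MYC against WT on log2(FPKM + 1) (vertical axis) for the 45 other Notch pathway genes compared, in order of role, with VP, DLP and AP as coloured points and dotted lines at 2-fold. Outside the dotted lines lie KAT2A in VP (1.38), DLK2 in DLP (1.37) and DNER in DLP (-1.35).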

How the data were processed

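Bulk RNA-seq of 6 libraries was analysed, 1 for each of 3 prostate lobes of 1 WT and 1 MYC mouse. The authors mapped single-end reads of 75 bases with STAR and quantified genes with Cufflinks in the VIPER workflow. Per the labels, reads were demultiplexed with bcl2fastq 2.18 and the build was mm10. The deposited values are FPKM. The methods call them counts, but they are not whole, so no count model was run. Libraries are stranded, but whether counting used the strand is not given in the sources used here.

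Groups were taken from the sample labels. Values were compared as deposited on log2(FPKM + 1), a scale that understates changes of low genes, over the 12361 of 24908 genes that averaged 1 FPKM or more, and 2-fold or more was called. Replicates were absent, so differences carry counting intervals only. Reads per gene were estimated from FPKM, the longest GENCODE M1 transcript and the depth. The depth came from genes with 1 exon and 1 transcript of over 600 bases at under 0.3 FPKM, with a fragment length of 200 bases, and lay between 25.4 M and 49.6 M reads. Such estimates rest on those lengths and leave out differences between animals.

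The 10 genes, the list of 58 other pathway genes and the marker lists were chosen with earlier results of these data known. Named were the 10 genes, pathway genes called in at least 1 lobe, defining markers, and the 3 genes with the most alike profile for each of the 10 that spanned at least 1. RBPJ, MAML2, NUMBL, HEYL, NRARP, the receptor proteases, the Fringe genes and the examples of low genes fall outside this rule and were chosen with their values in view. Some genes of the marker lists, and the results that need them, are not reported here. Coordinates and promoter sequences are from RefSeq on GRCm38.p6. Alternatives were a pseudocount of 0.1, 3 other scalings (size factors, equal sums, and a mean of ratios trimmed by 30%), ratios to reference genes, folds of 1.5 and 4, a minimum of 10 FPKM and the intervals. The computations were tested on simulated data. Tools were Python 3.11.15 with scipy 1.17.1, pandas 2.3.3, matplotlib 3.10.9 and numpy 2.4.6.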

Additional observations from a re-analysis of the deposited data

Results flagged for a closer look

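Some genes had log2 ratios of MYC against WT of opposite sign in 2 lobes that lay at least 1 apart. With 1 library per group none of these differences was tested. HES1 had -1.46 in VP and 0.32 in DLP, a difference of -1.79. JAG2 had -0.06 in VP and 1.12 in DLP, a difference of -1.18. The interval of the VP ratio of JAG2 held 1 (0.828 to 1.08) and its sign turned with ratios to KRT8 and KRT18 (0.19).

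Of the other pathway genes, DLK2 had -0.19 in VP and 1.37 in DLP, a difference of -1.56, and its VP interval held 1 (0.485 to 1.11). DNER had 0.93 in AP, against -0.94 in VP (difference -1.87) and -1.35 in DLP (difference -2.28). MFNG, a Fringe glycosyltransferase, had 0.59 in VP and -0.47 in AP, a difference of 1.06. FURIN, the protease that cuts the Notch precursor, had 0.73 in DLP and -0.39 in AP, a difference of 1.12. HEYL, a target of the HEY family, had -0.74 in VP and 0.29 in AP, a difference of -1.03. Each AP value for MYC rests on MYC AP, the library with the most seminal vesicle transcripts, and MYC DLP held some as well.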

How the results depend on the processing

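No paired analysis was possible because each genotype is 1 mouse: its 3 lobes pair with those of the other genotype by lobe, but such pairs are not replicate mice, so directions over lobes were only counted. Depth limits HEY1 and DLL4 in VP most, with 77 and 97 estimated reads in MYC VP. Of the 10 genes, the count past the threshold in VP went from 1 to 2 with equal sums of FPKM, to 2 at 1.5-fold and to 0 at 4-fold. In DLP it went from 1 to 0 at 4-fold and to 0 with a minimum mean of 10 FPKM, which leaves fewer genes. In AP it went from 0 to 1 at 1.5-fold. WT VP against WT DLP went from 2 lower genes to 4 with a pseudocount of 0.1, an alternative chosen after seeing the data. Beyond these, the cause was not tested.

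No value of the 10 genes that was past the threshold changed sign. JAG1 in VP, at -0.83, went to -1.03 with equal sums and -1.07 per endothelial marker mean. HES1 in VP ranged from -1.69 to -1.21 and JAG2 in DLP from 1.01 to 1.23 over the 6 alternatives. Uncalled signs turned in 8 cases, counted on values rounded to 2 decimals, 5 of them with ratios to KRT8 and KRT18 (NOTCH2, DLL4 and HES1 in AP, JAG2 and DLL4 in VP), the rest for NOTCH4 in AP, which equal sums took from 0.02 to -0.00. Equal sums shifted the all-gene median of VP, 0.04, to -0.15. The count of other pathway genes in VP went from 1 to 8 with a pseudocount of 0.1, to 3 with equal sums and to 2 with size factors or the trimmed mean, and in AP from 0 to 1 with a pseudocount of 0.1.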

Other observations

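T cell markers stood lower than the macrophage markers, with sums over the 4 genes in the table of 2.47 FPKM in WT and 11.3 in MYC for VP, of 6.01 and 23.6 for DLP and of 6.79 and 9.39 for AP.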
